A study of Homo sapiens with 12 samples.

Results

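The genes described here encode the enzymes and regulators with which a cell makes cholesterol and fatty acids. They were the 38 genes of a list of this pathway, taken by symbol from a table of 24302 features. The list itself was chosen with earlier results of these data known. RNA was sequenced from KYSE150, an established human line of esophageal squamous cell carcinoma, in 12 libraries that formed 4 groups of 3. The cells carried GFP alone, GFP-TFAP2β with the normal protein sequence (WT), or GFP-TFAP2β altered in a region labelled IDR3, as Mut_IDR3 or as ΔIDR3 (IDR stands for intrinsically disordered region). TFAP2β, the product of TFAP2B, is an AP-2 transcription factor, and the series names both altered forms as deficient in liquid-liquid phase separation. All 4 groups shared the cell line and the culture medium, and no time after introduction of the constructs, no promoter and no number of clones was given in the sources used here. The labels do not say whether replicates were separate cultures, so the spread between libraries, on which every p-value here rests, may be technical.

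Cholesterol and fatty acids are both built from acetyl-CoA in the cytosol. The sterol branch runs through mevalonate, the isoprenoid farnesyl diphosphate and squalene to lanosterol, which is trimmed to cholesterol. The fatty acid branch carboxylates acetyl-CoA to malonyl-CoA, assembles palmitate, and then elongates, desaturates and activates the chains. SREBP proteins, made from SREBF1 and SREBF2, switch on genes of both branches. They are carried by SCAP out of the endoplasmic reticulum when sterols are scarce and held back there by the INSIG proteins when sterols are plentiful.

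Promoter sequences were available in RefSeq (GRCh38.p14) for 34 of the 38 genes, with 46 start sites in all. The 250 bases before 6 starts are printed, 5′ to 3′ on the strand of the gene, because the AP-2 family and SREBP are the regulators in question. In SREBF2 the capitals mark a match to the sterol regulatory element TCACNCCAC. In the other promoters, the capitals mark a match to the AP-2 motif GCCNNNGGC, whose reverse complement is the same motif. These 5 were chosen, after their values were seen, from the genes with a match and a called change of at least 0.5 on the log2 scale. MSMO1 and ACSL3 also have a match and such a change and are not printed.
SREBF2, chr22:41832855-41833104, plus strand: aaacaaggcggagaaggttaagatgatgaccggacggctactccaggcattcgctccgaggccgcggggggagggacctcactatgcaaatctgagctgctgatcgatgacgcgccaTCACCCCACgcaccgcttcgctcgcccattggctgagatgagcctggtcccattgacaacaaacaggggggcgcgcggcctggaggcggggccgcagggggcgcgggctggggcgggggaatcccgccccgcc
SREBF1, chr17:17836987-17837236, minus strand: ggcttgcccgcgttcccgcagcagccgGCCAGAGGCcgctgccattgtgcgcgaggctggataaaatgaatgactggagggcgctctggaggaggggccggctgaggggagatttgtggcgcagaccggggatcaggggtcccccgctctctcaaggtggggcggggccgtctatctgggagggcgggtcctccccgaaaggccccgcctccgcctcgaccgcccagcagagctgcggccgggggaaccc
ACSS1, chr20:25058140-25058389, minus strand: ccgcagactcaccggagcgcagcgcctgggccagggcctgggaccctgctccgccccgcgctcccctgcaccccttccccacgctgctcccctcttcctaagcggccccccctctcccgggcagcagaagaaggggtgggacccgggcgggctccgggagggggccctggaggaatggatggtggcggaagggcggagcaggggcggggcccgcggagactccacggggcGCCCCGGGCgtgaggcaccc
SCD, chr10:100346983-100347232, plus strand: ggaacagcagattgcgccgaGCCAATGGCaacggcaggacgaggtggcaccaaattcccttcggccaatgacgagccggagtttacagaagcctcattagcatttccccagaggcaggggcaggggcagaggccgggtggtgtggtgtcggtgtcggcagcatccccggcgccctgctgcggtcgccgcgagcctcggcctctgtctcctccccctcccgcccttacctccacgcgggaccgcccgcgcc
MVD, chr16:88663092-88663341, minus strand: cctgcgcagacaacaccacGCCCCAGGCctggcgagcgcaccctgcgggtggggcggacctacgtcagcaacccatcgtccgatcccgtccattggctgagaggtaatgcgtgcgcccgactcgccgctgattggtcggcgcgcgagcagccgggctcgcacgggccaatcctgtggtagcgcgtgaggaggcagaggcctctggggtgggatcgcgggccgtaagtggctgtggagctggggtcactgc
ELOVL1, chr1:43368012-43368261, minus strand: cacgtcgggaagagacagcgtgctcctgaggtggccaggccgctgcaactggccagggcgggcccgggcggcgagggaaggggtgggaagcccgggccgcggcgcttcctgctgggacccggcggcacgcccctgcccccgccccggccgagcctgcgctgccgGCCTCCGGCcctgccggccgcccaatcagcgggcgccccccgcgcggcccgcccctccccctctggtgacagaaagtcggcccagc
The match in ACSS1 began 20 bases before the start of transcription, that in ELOVL1 began 86 bases before it, and that in SREBF2 began 133 bases before it. Those in SREBF1, SCD and MVD began 223, 230 and 231 bases before the start. The AP-2 match of SCD, GCCAATGGC, also holds the letters CCAAT.

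Motifs were searched on both strands of these windows. The AP-2 motif was present in 13 of the 46 promoters (28.3%), against 19.7% of 34943 promoters of all genes. The letters CCAAT, the core of the box bound by NF-Y, which acts with SREBP on sterol genes, were present in 27 of 46 (58.7%), against 32% of all promoters. The sterol regulatory element in the spelling searched was found in 1 of 46 (2.17%), that of SREBF2, against 0.881% of all. The E-box CACGTG was found in 5 of 46 (10.9%) against 6.32%. Windows of the same gene can overlap, so that 1 site is counted more than once. The E-box of SC5D, for example, lies 131 and 212 bases before its 2 starts. By gene, the AP-2 motif was in 13, CCAAT in 23 and the E-box in 4. A match of letters describes the window and does not show that a factor binds there.

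Total counts per library ranged from 30652851 to 43464956. Levels are given in CPM, the counts of a gene relative to the total of its library, scaled between libraries by the TMM method. TFAP2B served as the check of the constructs and was at 0.124 ± 0.142 CPM in GFP (SD, n = 3), 280.3 ± 45.6 CPM in WT, 702 ± 25.9 CPM in Mut_IDR3 and 704 ± 62.8 CPM in ΔIDR3. Both altered forms therefore held more TFAP2B RNA than WT, by log2 fold changes of 1.32 and 1.33. In every comparison of a mutant with WT, the form of the protein and the amount of its RNA cannot be told apart. All 9 squamous epithelial markers checked were present in the 12 libraries, with levels of 30.9 to 3709 CPM. Of 6 leukocyte and endothelial markers only CD68 passed 1 CPM, reaching 102 CPM, and PTPRC and PECAM1 had no counts. Of 6 fibroblast markers only COL1A1 passed it (up to 6.36 CPM), of 4 hepatocyte markers only SERPINA1 (up to 2.75 CPM, with ALB and TTR at 0 counts), and of 4 adipocyte markers none (up to 0.604 CPM, with ADIPOQ and CIDEC at 0 counts). Their part in the results was not tested. Mitochondrially encoded RNA took 10.3% of the counts in GFP, 5.75% in WT, 8.36% in Mut_IDR3 and 7.72% in ΔIDR3.

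Of the 38 genes, 36 had enough counts to be tested. ACAT2, the cytosolic thiolase that opens the sterol branch, had 44 counts over all libraries, and DHCR7, the last reductase of the branch, had 8. ACAT2 shares 35.8% of its exonic bases with other genes. Whether the low counts of ACAT2 and DHCR7 come from the cells or from the counting of reads was not tested. All 38 genes summed to 0.511% of the counts in GFP, 0.461% in WT, 0.538% in Mut_IDR3 and 0.514% in ΔIDR3. Relative to exonic length, the most abundant transcript in the GFP cells was SCD, with a level of 208 CPM per kilobase. FDPS (73), ACLY (59.5), FDFT1 (55.3) and FASN (53.9 CPM per kilobase) followed. Among the 36 tested genes the lowest levels on this scale were those of FADS1 (1.96), FADS2 (0.88) and ACSS1 (0.414 CPM per kilobase). SCD, FDPS and ACLY held ranks 1 to 3 in all 4 groups.

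The first comparison, WT against GFP, asks what changes when the normal protein is added. Genes of the sterol branch moved in both directions, and ACACA and FASN, which assemble palmitate, fell. Of the 36 genes tested, 13 were higher and 14 lower with WT at an adjusted p under 0.05, by edgeR's quasi-likelihood F test with Benjamini-Hochberg adjustment over all 14792 genes. That is 75.0% of the genes of lipid synthesis, where 54.9% of all genes tested were called, 27.7% higher and 27.1% lower. Their median log2 fold change was 0.02, beside -0.01 over all genes tested. The median near 0 thus covered single changes from -1.23 for ELOVL6 to 0.58 for ELOVL1.

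**Figure D1:**
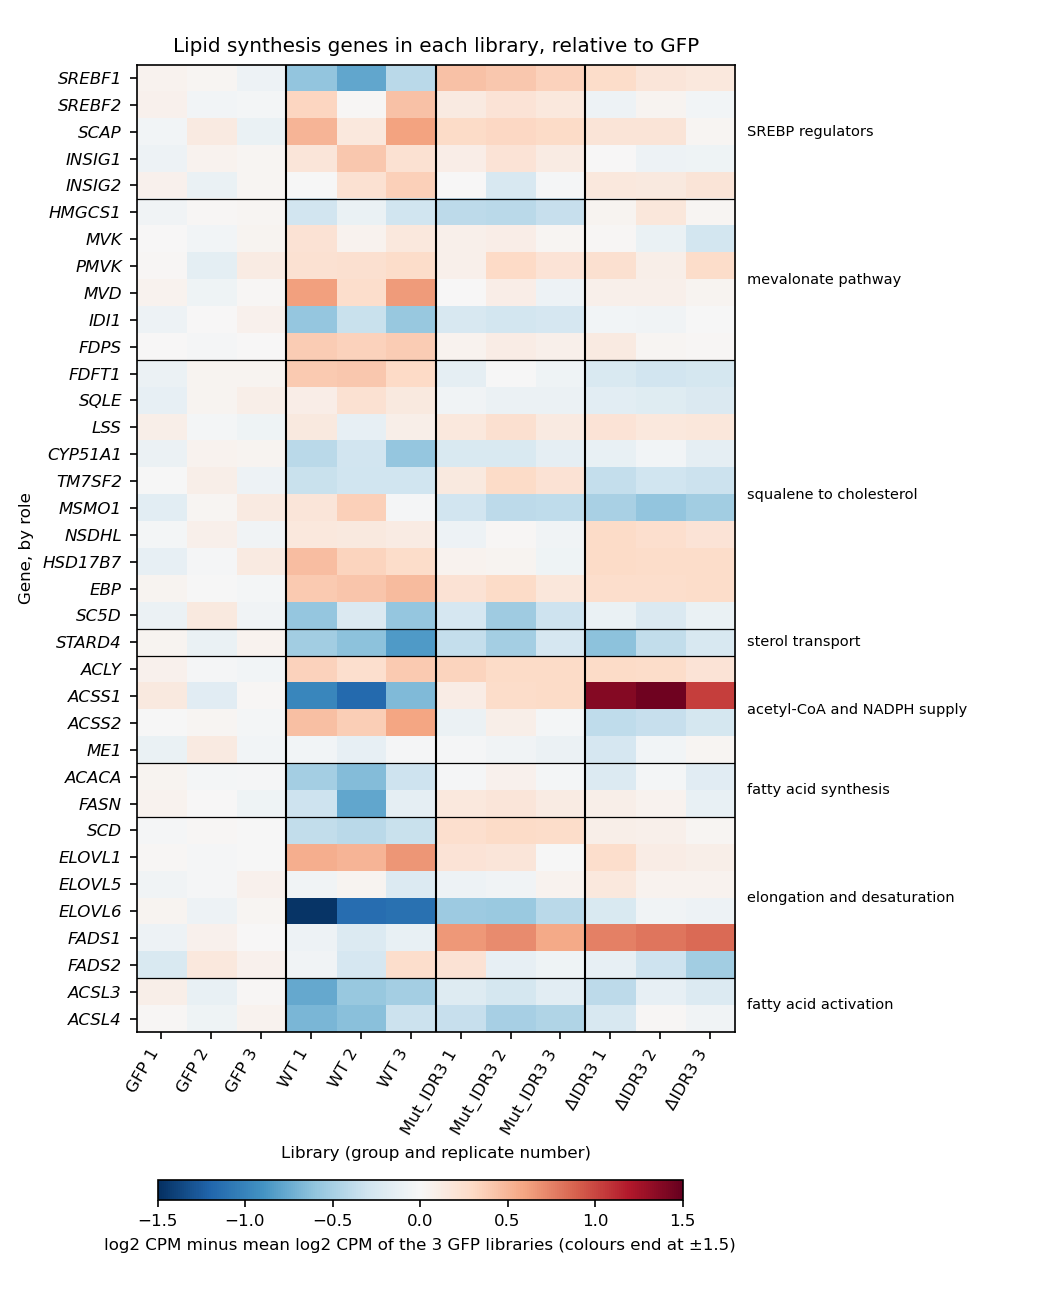
Heat map of the 36 tested genes (rows, by role) in the 12 libraries (columns). Colour gives log2 CPM minus the mean log2 CPM of the 3 GFP libraries, red above and blue below it, ending at ±1.5. ELOVL6 and ACSS1 are darkest blue in the WT columns, ACSS1 and FADS1 are darkest red in the ΔIDR3 columns, and the mevalonate and squalene rows hold both colours under WT.

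The changes followed the GC content of the genes in part. The rank correlation (Spearman) between GC content and the change of WT against GFP was 0.38 over the 36 genes and 0.51 over the 12724 tested genes with a GC value. For Mut_IDR3 and ΔIDR3 against GFP it was 0.75 and 0.26 over the 36 genes (0.43 and 0.19 over all), and for Mut_IDR3 and ΔIDR3 against WT it was -0.0075 and -0.25 (-0.39 and -0.44 over all). Between Mut_IDR3 and ΔIDR3 it was 0.44 (0.25 over all). Genes are not independent, so these are descriptions. The 13 genes that rose had a median GC content of 54.6%, and the 14 that fell had 41.4%. The same fit was therefore repeated with a GC trend removed from every library. It called 13 of the 36 genes higher and 11 lower, where 48.0% of all genes were called, 21.8% higher and 26.2% lower. Of the 27 calls, 16 were kept, 10 were lost, and HMGCS1 was called in the opposite direction. Many genes below have a second log2 fold change, the value after this removal. It, or the loss of the call, is given where removal ended the call, turned its direction or moved the value by over 1.5 times.

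**Figure D2:**
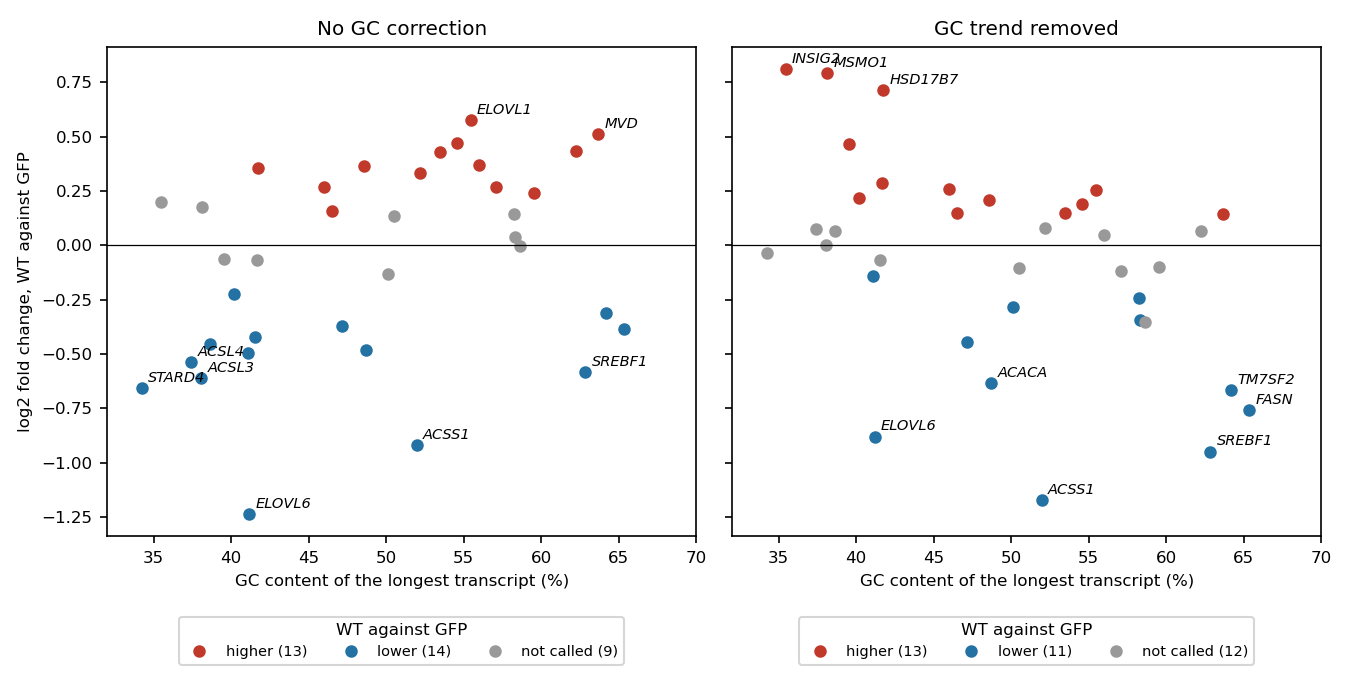
GC content of the longest transcript (x axis, %) against the log2 fold change of WT against GFP (y axis) for the 36 tested genes, before (left) and after (right) removal of the GC trend. Red points were called higher, blue points lower and grey points not called. On the left 13 genes are red and 14 blue, and on the right 13 are red and 11 blue. STARD4, ACSL3 and ACSL4, blue and at low GC content on the left, are not called on the right, while ELOVL6, ACSS1 and SREBF1 are blue on both sides.

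Among the SREBP regulators, SREBF1 was lower and SREBF2 higher with WT. Of these 2, only SREBF1 kept its call and direction after removal of the GC trend. SREBF1, whose product acts mainly on fatty acid genes, was at 148, 146 and 136 CPM (GFP), 94.6, 83.4 and 108 CPM (WT), 194, 189.7 and 181 CPM (Mut_IDR3) and 173, 162 and 159 CPM (ΔIDR3). The WT libraries lay below all others and the Mut_IDR3 libraries above all others. SREBF1 fell 1.5-fold with WT against GFP (log2 fold change -0.58, SE 0.08, adjusted p = 1.37e-05). After removal of the GC trend the value was -0.95. Against GFP it rose with Mut_IDR3 (log2 fold change 0.40, SE 0.08, adjusted p = 0.00282), with a GC-removed value of 0.26 that was still called. With ΔIDR3 the difference from GFP was 0.20 (SE 0.08, adjusted p = 0.0583), which was not called, although the libraries did not overlap. The GC-removed value of 0.16 was called.

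The other 4 regulators changed less. SREBF2, whose product acts mainly on sterol genes, rose with WT by 0.27 (SE 0.08, adjusted p = 0.0111) on the log2 scale, although the libraries overlapped. It was not called without WT replicate 3 (0.18) or after removal of the GC trend (-0.12). SCAP, the escort of SREBP, rose by 0.44 (SE 0.10, adjusted p = 0.00138), and its GC-removed value of 0.07 was not called. INSIG1, the retention factor that SREBP itself induces, rose by 0.27 (SE 0.06, adjusted p = 0.00172), and the value after GC removal was 0.26. Its relative INSIG2 was at 0.20 (SE 0.11, adjusted p = 0.14), which was not called, and GC removal brought it to 0.81, which was. The GC content of INSIG2 is 35.4%.

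In the mevalonate pathway 3 of 6 tested genes rose with WT (PMVK, MVD and FDPS), 2 fell (HMGCS1 and IDI1), and MVK was not called. Over all genes, 27.7% were called higher and 27.1% lower. MVD, the decarboxylase that makes isopentenyl diphosphate, was at 59, 54.3 and 57.7 CPM (GFP), 87.3, 68.3 and 88.4 CPM (WT), 57.2, 61 and 54.1 CPM (Mut_IDR3) and 59.9, 59.8 and 58.5 CPM (ΔIDR3). All 3 WT libraries lay above the other 9, which overlapped. WT replicate 2 was the lowest of the 3. MVD rose 1.43-fold with WT (log2 fold change 0.51, SE 0.09, adjusted p = 0.000131), and 0.14 was left after GC removal, still called. IDI1, the isomerase of the next step, fell by 0.49 (SE 0.06, adjusted p = 1.18e-05), with -0.14 after GC removal, also still called. FDPS, the synthase of farnesyl diphosphate, rose by 0.37 (SE 0.04, adjusted p = 5.84e-06), and its GC-removed value of 0.05 was not called.

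HMGCS1, which makes the precursor HMG-CoA, was lower with WT at -0.22 (SE 0.06, adjusted p = 0.00532). After GC removal it was higher, at 0.22, and called. The direction for HMGCS1 therefore depended on that setting. PMVK, the phosphomevalonate kinase, was at 0.24 (SE 0.10, adjusted p = 0.0452) and lost its call when any of 6 single libraries was left out (0.18 to 0.26) and after GC removal (-0.10).

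From squalene to cholesterol, 4 of 10 tested genes rose with WT (FDFT1, SQLE, HSD17B7 and EBP). Another 3 fell (CYP51A1, TM7SF2 and SC5D) and 3 were not called (LSS, MSMO1 and NSDHL). Of all genes, 27.7% were called higher and 27.1% lower. FDFT1, squalene synthase and the first step committed to sterols, was at 271, 296 and 296 CPM (GFP), 378, 382 and 353 CPM (WT), 262, 286 and 276 CPM (Mut_IDR3) and 244, 236 and 239 CPM (ΔIDR3). WT lay above and ΔIDR3 below all other libraries, while GFP and Mut_IDR3 overlapped. The rise with WT was 1.29-fold (log2 fold change 0.37, SE 0.05, adjusted p = 2.74e-05), with 0.21 after GC removal, still called.

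SQLE, the epoxidase and a control point of the branch, was at 0.16 (SE 0.06, adjusted p = 0.0369) with WT against GFP. That call was lost when any of 6 single libraries was left out (0.11 to 0.18). EBP, the sterol isomerase, rose by 0.43 (SE 0.05, adjusted p = 2.6e-06), and 0.15 remained called after GC removal. HSD17B7, the ketosteroid reductase of the branch, rose by 0.35 (SE 0.09, adjusted p = 0.00453), and GC removal raised the value to 0.71. CYP51A1, the lanosterol demethylase, fell by 0.42 (SE 0.07, adjusted p = 9.26e-05), with a GC-removed value of -0.07 that was not called. Its reads are uncertain, since 79.4% of its exonic bases are shared with 2 other annotated genes. The larger overlap is with AC000120.2 on the same strand. SC5D, a sterol desaturase, fell by 0.45 (SE 0.11, adjusted p = 0.00261), and after GC removal the value was 0.07, not called.

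TM7SF2, one of the sterol reductases, was at 24.3, 26.1 and 23.2 CPM (GFP), 19.4, 19.9 and 19.9 CPM (WT), 27.1, 29.9 and 28.6 CPM (Mut_IDR3) and 19.1, 19.9 and 19.6 CPM (ΔIDR3). WT and ΔIDR3 overlapped below GFP, and Mut_IDR3 lay above all others. TM7SF2 fell with WT (log2 fold change -0.31, SE 0.07, adjusted p = 0.00232), and the value after GC removal was -0.67. The fall with ΔIDR3 was -0.33 (SE 0.07, adjusted p = 0.00419). With Mut_IDR3 it was at 0.22 (SE 0.07, adjusted p = 0.0494) against GFP, a call lost when any of 9 single libraries was left out (0.17 to 0.25), under the replicate block, with median-ratio scaling, with no filter, without mitochondrially encoded genes and after GC removal (0.09).

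MSMO1, the methylsterol oxidase that follows the lanosterol step, was at 86.6, 98.5 and 106 CPM (GFP), 109.9, 124 and 95.2 CPM (WT), 79.1, 73.7 and 74.2 CPM (Mut_IDR3) and 69, 64 and 67.3 CPM (ΔIDR3). GFP and WT overlapped, and every mutant library lay below both. WT differed from GFP by 0.18 (SE 0.09, adjusted p = 0.108), which was not called. The GC-removed value of 0.79 was called, as were the values without GFP replicate 3 or WT replicate 3. MSMO1 was lower than with GFP in ΔIDR3 (log2 fold change -0.54, SE 0.09, adjusted p = 0.000423), with -0.36 after GC removal. With Mut_IDR3 it fell by 0.36 (SE 0.09, adjusted p = 0.0109), and that call was lost without GFP replicate 3, without Mut_IDR3 replicate 2 (-0.34 to -0.30) and after GC removal (-0.09).

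STARD4, which carries cholesterol through the cytosol, was at 39.8, 36 and 40.1 CPM (GFP), 27, 25.3 and 21.4 CPM (WT), 30.1, 27.2 and 32.5 CPM (Mut_IDR3) and 25.3, 30 and 32.7 CPM (ΔIDR3). All construct libraries lay below GFP, and those of WT and ΔIDR3 overlapped. It fell 1.57-fold with WT (log2 fold change -0.66, SE 0.11, adjusted p = 0.000118). Of these genes STARD4 had the lowest GC content, 34.2%, and after GC removal its value was -0.03, not called. The falls with Mut_IDR3 (-0.37 (SE 0.11, adjusted p = 0.0259)) and ΔIDR3 (-0.40 (SE 0.11, adjusted p = 0.0125)) were likewise not called after GC removal (-0.09 and -0.23). Without ΔIDR3 replicate 1 the fall with ΔIDR3 was -0.32 and not called, and any of 4 single libraries ended that with Mut_IDR3 (-0.38 to -0.30).

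Over all 6 comparisons the largest fold change of the 36 genes was one of ACSS1, between ΔIDR3 and WT. This gene, which encodes a mitochondrial acetyl-CoA synthetase, was at 3.97, 3.2 and 3.63 CPM (GFP), 1.82, 1.6 and 2.27 CPM (WT), 3.86, 4.35 and 4.36 CPM (Mut_IDR3) and 9.33, 9.85 and 7.38 CPM (ΔIDR3). WT lay below all other groups and ΔIDR3 above all of them, while Mut_IDR3 overlapped GFP. ACSS1 fell 1.89-fold with WT (log2 fold change -0.92, SE 0.18, adjusted p = 0.000515) and rose 2.46-fold with ΔIDR3 (log2 fold change 1.30, SE 0.17, adjusted p = 7.68e-05), both against GFP. With Mut_IDR3 the difference from GFP was 0.22 (SE 0.18, adjusted p = 0.411), not called. The GC-removed values were -1.17, 1.20 and 0.10 in that order. The levels of ACSS1 are low, so its counts are fewer and its standard errors larger than those of the other 35 tested genes.

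ACSS2, the synthetase of the cytosol and nucleus, changed the other way. It was at 85.4, 87.8 and 84.3 CPM (GFP), 117, 111 and 129 CPM (WT), 81, 91.5 and 83.8 CPM (Mut_IDR3) and 66, 67.5 and 71.3 CPM (ΔIDR3). WT lay above and ΔIDR3 below all other libraries, and Mut_IDR3 spanned the GFP values. ACSS2 rose with WT (log2 fold change 0.47, SE 0.06, adjusted p = 1.98e-05; 0.19 after GC removal, still called) and fell with ΔIDR3 (log2 fold change -0.33, SE 0.07, adjusted p = 0.0016). The difference with Mut_IDR3 was -0.01 (SE 0.06, adjusted p = 0.961), not called.

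ACLY, which splits citrate into acetyl-CoA, was higher than with GFP in all 3 construct groups. Its log2 fold changes were 0.33 (SE 0.05, adjusted p = 4.08e-05) for WT, 0.30 (SE 0.05, adjusted p = 0.00116) for Mut_IDR3 and 0.25 (SE 0.05, adjusted p = 0.00138) for ΔIDR3. After GC removal they were 0.08, not called, and 0.18 and 0.16, both called. These comparisons share the GFP libraries. ME1, a source of NADPH, was not called in any of the 6 comparisons before GC removal. After it, the value for WT against GFP was 0.47 and called.

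Both genes of the palmitate assembly fell with WT. FASN, the fatty acid synthase, was at 525, 507 and 482 CPM (GFP), 407, 294 and 459 CPM (WT), 562, 574 and 549.7 CPM (Mut_IDR3) and 538, 524 and 468 CPM (ΔIDR3). WT lay below all other groups and Mut_IDR3 above all others, while ΔIDR3 overlapped GFP. Within WT the second replicate was far below the other pair. FASN fell 1.31-fold with WT (log2 fold change -0.38, SE 0.11, adjusted p = 0.00872), and without WT replicate 2 the value was -0.22 and still called. After GC removal it was -0.76. ACACA, the carboxylase that makes malonyl-CoA, fell by 0.48 (SE 0.07, adjusted p = 4.89e-05), and its GC-removed value was -0.63. Neither gene was called between GFP and Mut_IDR3 or ΔIDR3, with values of 0.15 and 0.01 for FASN and 0.01 and -0.13 for ACACA.

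Among the 6 genes of elongation and desaturation, ELOVL1 rose with WT, SCD and ELOVL6 fell, and ELOVL5, FADS1 and FADS2 were not called. ELOVL6, the elongase that takes palmitate to stearate, was at 52.3, 48.2 and 51.8 CPM (GFP), 18.2, 23.1 and 23.4 CPM (WT), 34.7, 34.5 and 38.3 CPM (Mut_IDR3) and 43.4, 49.1 and 48.1 CPM (ΔIDR3). The WT libraries held less than any other, Mut_IDR3 lay between WT and the rest, and ΔIDR3 overlapped GFP. ELOVL6 fell 2.35-fold with WT (log2 fold change -1.23, SE 0.10, adjusted p = 7.71e-08), with -0.88 after GC removal, and this was the lowest value of the 36 genes without that removal. It fell with Mut_IDR3 as well (log2 fold change -0.50, SE 0.09, adjusted p = 0.00251), whereas the difference with ΔIDR3, -0.12 (SE 0.09, adjusted p = 0.381), was not called.

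SCD, the desaturase that makes oleate, the most abundant transcript of the list per kilobase, was at 1107, 1128 and 1115 CPM (GFP), 861, 841 and 887 CPM (WT), 1333, 1364 and 1351 CPM (Mut_IDR3) and 1187, 1177 and 1140 CPM (ΔIDR3). The 4 groups did not overlap, with WT lowest, then GFP, ΔIDR3 and Mut_IDR3. The fall with WT was 1.29-fold (log2 fold change -0.37, SE 0.04, adjusted p = 1.77e-06), and the rise with Mut_IDR3 was 1.21-fold (log2 fold change 0.27, SE 0.04, adjusted p = 0.000446). For ΔIDR3 the value of 0.06 (SE 0.04, adjusted p = 0.239) was not called. GC removal kept all 3 of these outcomes, with -0.44, 0.22 and 0.01.

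ELOVL1, an elongase of very long chains, was at 109, 107 and 108 CPM (GFP), 158, 154 and 171 CPM (WT), 125, 122 and 107 CPM (Mut_IDR3) and 129, 116 and 115 CPM (ΔIDR3). WT lay above all other libraries, and the GFP and Mut_IDR3 ranges overlapped. ELOVL1 rose 1.49-fold with WT (log2 fold change 0.58, SE 0.07, adjusted p = 3.93e-06), with 0.25 after GC removal, still called. Against GFP, neither Mut_IDR3 (0.13) nor ΔIDR3 (0.15) was called.

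FADS1, the desaturase that completes arachidonate, stood apart in the mutants. It was at 19.1, 20.9 and 20.2 CPM (GFP), 19, 17.5 and 18.6 CPM (WT), 31.6, 32.9 and 29.6 CPM (Mut_IDR3) and 33.8, 35 and 36.2 CPM (ΔIDR3). All 6 mutant libraries lay above the 6 others, and ΔIDR3 lay above Mut_IDR3. FADS1 rose 1.56-fold with Mut_IDR3 (log2 fold change 0.64, SE 0.08, adjusted p = 0.000109) and 1.74-fold with ΔIDR3 (log2 fold change 0.80, SE 0.08, adjusted p = 2.8e-06) against GFP. WT differed from GFP by -0.13 (SE 0.08, adjusted p = 0.166), not called, although the GC-removed value of -0.28 was. FADS2, its neighbour on chromosome 11, overlaps it on the opposite strand over 4.79% of the exonic bases of FADS1, and was not called in any comparison.

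Both acyl-CoA synthetases, which activate fatty acids for use, fell with WT. ACSL3, which serves lipid droplet formation, was at 152, 133 and 145 CPM (GFP), 84.2, 96.2 and 101 CPM (WT), 125, 119 and 128 CPM (Mut_IDR3) and 109, 131 and 124 CPM (ΔIDR3). WT lay below and GFP above all mutant libraries, and the mutants overlapped each other. ACSL3 fell 1.53-fold with WT (log2 fold change -0.61, SE 0.08, adjusted p = 1.09e-05). The fall with ΔIDR3 was -0.24 (SE 0.08, adjusted p = 0.0324) and was lost when any of 3 single libraries was left out (-0.25 to -0.18), and the value with Mut_IDR3, -0.21 (SE 0.08, adjusted p = 0.0705), was not called. After GC removal the WT value was 0.00 and the ΔIDR3 value -0.07, neither called.

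ACSL4, which prefers arachidonate and is known for its part in ferroptosis, was at 95, 89.7 and 97.9 CPM (GFP), 58.5, 60.9 and 75.2 CPM (WT), 74.1, 66.8 and 68.8 CPM (Mut_IDR3) and 79.5, 95.2 and 91.1 CPM (ΔIDR3). WT and Mut_IDR3 overlapped below GFP, and ΔIDR3 overlapped GFP. ACSL4 fell with WT (log2 fold change -0.54, SE 0.09, adjusted p = 0.000128) and with Mut_IDR3 (log2 fold change -0.43, SE 0.09, adjusted p = 0.00473). The GC-removed values of 0.08 and -0.17 were not called. The transcripts of ACSL3 and ACSL4 have GC contents of 38.1% and 37.4%.

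**Figure D3:**
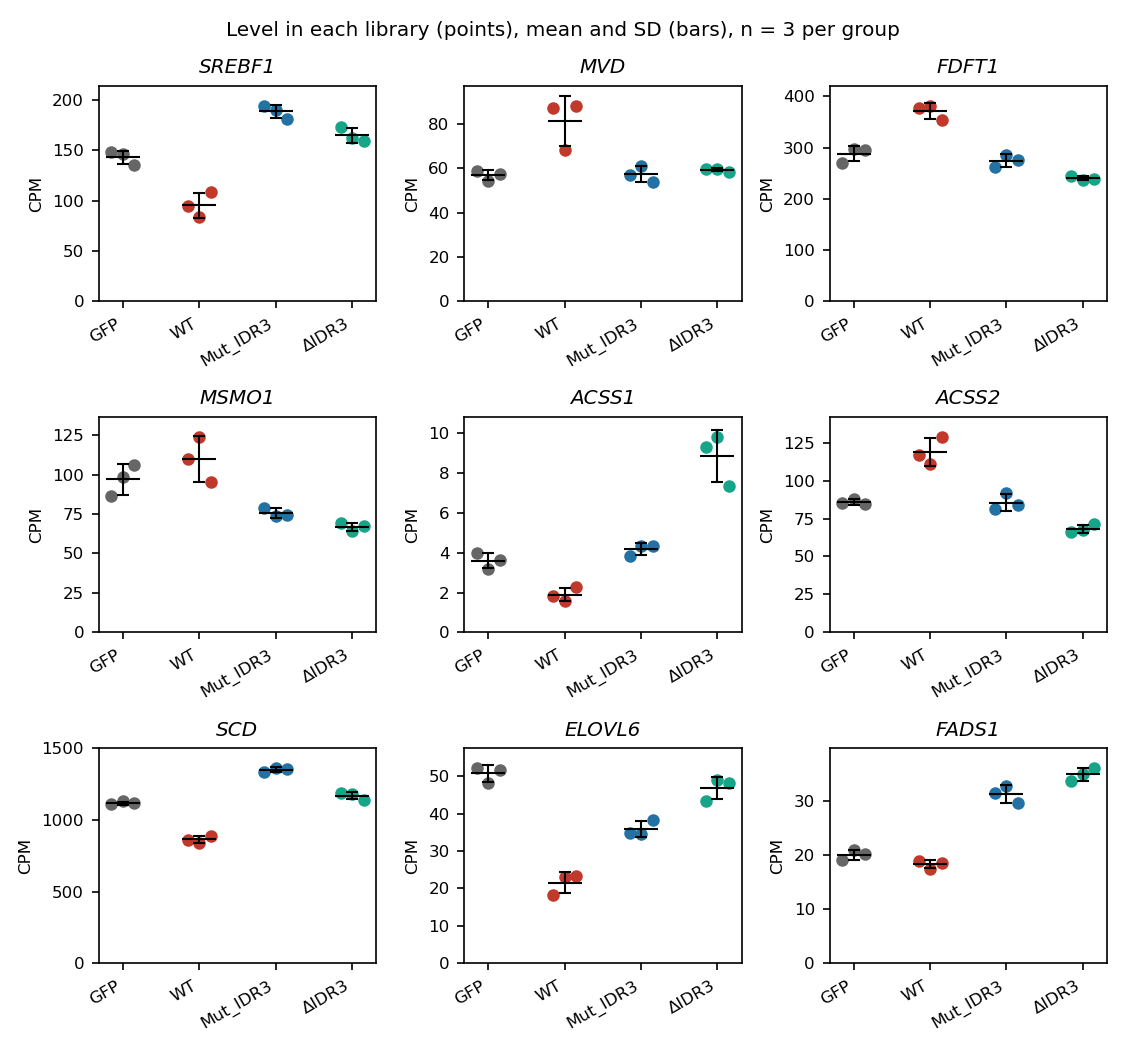
Levels of 9 genes in each library (points, CPM on a linear axis from 0), with the mean and SD of the 3 libraries of each group (bars). WT is lowest for SREBF1, ACSS1, SCD and ELOVL6 and highest for MVD, FDFT1 and ACSS2. In MSMO1 and FADS1 the mutants stand apart from both GFP and WT.

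Fewer of these genes were called between an altered form and GFP than between WT and GFP, and whether these numbers differ was not tested. With Mut_IDR3, 7 of the 36 were higher and 7 lower, or 38.9%, where 21.1% of all genes were called, 11.2% higher and 9.85% lower. The median was 0.01, beside -0.01 over all genes. With ΔIDR3, 6 were higher and 7 lower, or 36.1%, where 29.0% of all genes were called, 15.6% higher and 13.4% lower. That median rounded to 0.00, beside -0.02. The 3 comparisons share the GFP libraries, so their values stand side by side here and were not correlated.

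With Mut_IDR3 the genes that rose were SREBF1, SCAP, TM7SF2, EBP, ACLY, SCD and FADS1, and those that fell were HMGCS1, IDI1, MSMO1, SC5D, STARD4, ELOVL6 and ACSL4. HMGCS1 fell by 0.38 (SE 0.06, adjusted p = 0.000868). The calls depended on single libraries. Their number ranged from 8, without GFP replicate 3 or without Mut_IDR3 replicate 2, to 18 without WT replicate 2. That last library is of neither group but is part of the same fit, and why it mattered was not tested. The shares of all genes called in these fits are not given here. SCAP (0.23 to 0.30), IDI1 (-0.25 to -0.23), TM7SF2, MSMO1, SC5D (-0.40 to -0.28) and STARD4 each lost the call when 1 library or another was left out, while 8 of the 14 calls held in all such fits. GC removal left 7 called, where 14.5% of all genes were, 8.02% higher and 6.50% lower. Of the 14, those kept were SREBF1, HMGCS1 (-0.20), ACLY, SCD, ELOVL6 and FADS1. Among the calls lost, SCAP was at 0.16, IDI1 at -0.12, EBP at 0.09 and SC5D at -0.13. FDFT1 (-0.14) was called lower only after the removal.

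With ΔIDR3 the genes that rose were NSDHL, HSD17B7, EBP, ACLY, ACSS1 and FADS1, and those that fell were FDFT1, SQLE, TM7SF2, MSMO1, STARD4, ACSS2 and ACSL3. FDFT1 fell by 0.26 (SE 0.05, adjusted p = 0.00165). Where 29.0% of all genes were called, none of the 5 SREBP regulators and none of the 6 tested mevalonate genes was. Their values lay between -0.11 (MVK) and 0.20 (SREBF1). After GC removal, SREBF1, INSIG2 (0.35), HMGCS1 (0.20) and MVK (-0.23) of these 11 were called. In all, GC removal gave 10 higher and 6 lower, or 62.5% higher beside 46.2% before, where 31.6% of all genes were called, 16.8% higher and 14.8% lower. Leaving out single libraries ended the calls of NSDHL (0.21, and 0.15 but called after GC removal), HSD17B7 (0.20 to 0.26), SQLE (-0.19 to -0.16), ACSL3 and STARD4.

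**Figure D4:**
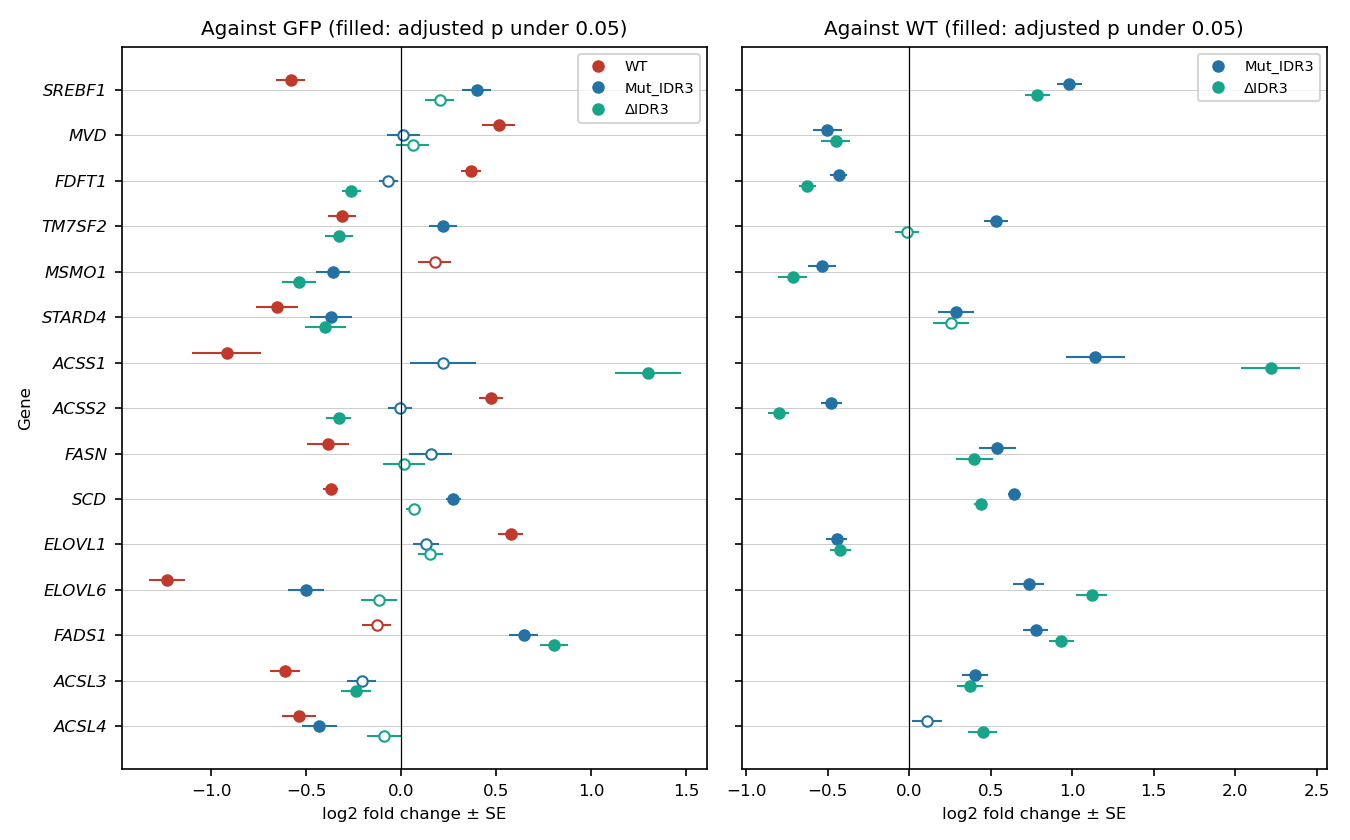
Log2 fold changes with their SE for the 15 genes called in at least 1 comparison with a change of 0.5 or more on the log2 scale, against GFP (left) and against WT (right), with filled points for an adjusted p under 0.05. For SREBF1 and SCD, WT lies to the left of 0 and Mut_IDR3 to the right, and for ACSS1, WT lies to the left and ΔIDR3 to the right. Against WT, SREBF1, ACSS1, FASN, SCD, ELOVL6 and FADS1 lie to the right of 0 for both mutants.

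The direct comparison of each mutant with WT asks what the altered region changes, with the limit that both mutants held more TFAP2B RNA. With Mut_IDR3 against WT, 12 genes were higher and 12 lower, or 66.7% of the 36, where 44.1% of all genes were called, 23.2% higher and 20.9% lower. With ΔIDR3 against WT, 13 were higher and 12 lower, or 69.4%, where 52.3% were called, 27.2% higher and 25.0% lower. Both medians were -0.02, beside 0.03 over all genes. These 2 comparisons share the WT libraries. GC removal left 9 higher and 13 lower with Mut_IDR3, where 41.0% of all genes were called, 22.4% higher and 18.6% lower. With ΔIDR3 it left 11 higher and 10 lower, where 48.8% were called, 26.9% higher and 21.9% lower.

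In the fatty acid branch, SREBF1 was higher than with WT by 0.98 (SE 0.08, adjusted p = 1.46e-07) in Mut_IDR3 and by 0.79 (SE 0.08, adjusted p = 8.69e-07) in ΔIDR3. FASN was higher by 0.54 (SE 0.11, adjusted p = 0.00123) and 0.40 (SE 0.11, adjusted p = 0.00759). Without WT replicate 2 the second value was 0.24, and after GC removal it was 0.73, each still called. For SCD, the differences were 0.64 (SE 0.04, adjusted p = 1.05e-08) and 0.44 (SE 0.04, adjusted p = 4.15e-07). ACACA was higher by 0.49 and 0.35. Each of these 4 genes lay above the WT libraries in all 6 mutant libraries. GC removal kept every one of these calls. Other SREBP regulators were lower than with WT in ΔIDR3, namely INSIG1 (-0.32), SCAP (-0.30) and SREBF2 (-0.29). Of these only INSIG1 kept the call after GC removal, and that of SCAP was lost when any of 3 single libraries was left out (-0.27 to -0.21). In Mut_IDR3, INSIG2 was lower by 0.28, with -0.62 after GC removal. That call was lost when any of 4 single libraries was left out (-0.32 to -0.20).

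ACSS1, ELOVL6 and FADS1 were higher as well. ACSS1 was 2.2-fold higher in Mut_IDR3 (log2 fold change 1.14, SE 0.18, adjusted p = 0.000141) and 4.65-fold higher in ΔIDR3 (log2 fold change 2.22, SE 0.18, adjusted p = 1.54e-07). ELOVL6 was higher by 0.73 (SE 0.10, adjusted p = 2.47e-05) and 1.12 (SE 0.10, adjusted p = 2.42e-07), and FADS1 by 0.77 (SE 0.08, adjusted p = 1.35e-06) and 0.93 (SE 0.08, adjusted p = 1.32e-07). These calls were kept after GC removal as well, with 0.52 and 0.83 for ELOVL6.

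Lower than with WT in both mutants were 8 genes: FDFT1, MSMO1, ACSS2, MVD, ELOVL1, FDPS, SQLE and EBP. FDFT1 differed by -0.43 (SE 0.05, adjusted p = 1.09e-05) in Mut_IDR3 and -0.63 (SE 0.05, adjusted p = 1.73e-07) in ΔIDR3, and MSMO1 by -0.54 (SE 0.09, adjusted p = 0.0002) and -0.72 (SE 0.09, adjusted p = 9.14e-06). GC removal kept both calls of FDFT1 and of MSMO1, the latter at -0.89 and -1.16. ACSS2 differed by -0.48 (SE 0.06, adjusted p = 3.3e-05) and -0.80 (SE 0.07, adjusted p = 1.39e-07). MVD differed by -0.50 and -0.45, of which the first was still called after GC removal (-0.27) and the second was not (-0.13). ELOVL1 differed by -0.45 and -0.42, with -0.27 and -0.18 after GC removal, both called. FDPS differed by -0.29 and -0.31 (-0.11, called, and -0.06, not called, after GC removal). SQLE differed by -0.24 and -0.35, both kept after GC removal, and EBP by -0.20 and -0.17, neither kept (-0.06 and 0.03).

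In the sterol branch, IDI1 and CYP51A1 were higher than with WT in both mutants. IDI1 was higher by 0.23 and 0.46, of which GC removal left 0.02, not called, and 0.17, called. CYP51A1 was higher by 0.22, a call lost without WT replicate 3 or Mut_IDR3 replicate 3 (0.15 to 0.19), and by 0.32, and neither call was kept after GC removal (0.01 and 0.04). HMGCS1 was lower than with WT in Mut_IDR3 (-0.16), a call lost when any of 5 single libraries was left out (-0.18 to -0.09) and at -0.41 after GC removal. In ΔIDR3 it was higher by 0.31, a call not kept after GC removal (-0.01). MVK was lower in ΔIDR3 by 0.26 and SC5D higher by 0.31, neither kept after GC removal (0.01 and -0.06). The SC5D call was lost when any of 5 single libraries was left out (0.25 to 0.33). HSD17B7 was lower in Mut_IDR3 (-0.35, and -0.57 after GC removal, still called). NSDHL was lower there by 0.17, a call lost when any of 4 single libraries was left out (-0.17 to -0.16) and after GC removal (-0.04).

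TM7SF2 was higher than with WT in Mut_IDR3 (0.53 (SE 0.07, adjusted p = 4.72e-05)), while its difference in ΔIDR3 was -0.02, or 0.30 and called after GC removal. ACSL3 was higher in both, by 0.40 and 0.37, and ACSL4 was higher in ΔIDR3, by 0.45. None of these ACSL3 and ACSL4 calls was kept after GC removal (0.05 and -0.07 for ACSL3, and 0.00 for ACSL4). STARD4 was higher in Mut_IDR3 by 0.29, a call lost when any of 9 single libraries was left out (0.19 to 0.31), under most other settings, and turned by GC removal to -0.06, not called.

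Mut_IDR3 was also compared with ΔIDR3, from which its TFAP2B RNA differed by a log2 fold change of -0.01 (SE 0.11). Here 4 of the 36 genes were higher in Mut_IDR3 and 6 lower, or 27.8%, where 10.8% of all genes were called, 5.54% higher and 5.24% lower. The median was 0.02, beside -0.01 over all genes. The largest difference was that of ACSS1, at 2.11-fold less in Mut_IDR3 (log2 fold change -1.08, SE 0.17, adjusted p = 0.00133). TM7SF2 was higher in Mut_IDR3 (log2 fold change 0.55, SE 0.07, adjusted p = 0.000392), as were ACSS2 (0.32 (SE 0.07, adjusted p = 0.00625)) and SCD (0.21 (SE 0.04, adjusted p = 0.00438)). HMGCS1 was lower, at -0.46 (SE 0.06, adjusted p = 0.000284). These 5 calls held when each library was left out in turn. The other 5, FDFT1, IDI1, NSDHL, ELOVL6 and ACSL4, did not. FDFT1 was at 0.19 (0.16 to 0.20 where the call was lost), ELOVL6 at -0.39 (-0.36 to -0.34) and ACSL4 at -0.34 (-0.33 to -0.28). IDI1 was at -0.23 (-0.23 to -0.21) and NSDHL at -0.28 (-0.25). The count fell to 6 without Mut_IDR3 replicate 2, ΔIDR3 replicate 2 or ΔIDR3 replicate 3 and rose to 13 without WT replicate 2. The shares of all genes in those fits are not given here. After GC removal 11 genes were called, where 14.0% of all genes were, 6.44% higher and 7.54% lower.

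Of the 36 tested genes, 32 were called in at least 1 of the 6 comparisons. The same count over all genes is not given here, and WT against GFP alone called 54.9% of them. The 4 tested genes of lipid synthesis without a call were LSS, ME1, ELOVL5 and FADS2. Of these, ELOVL5 came nearest to a call, at 0.15 (SE 0.06, adjusted p = 0.0571) for ΔIDR3 against WT. LSS, the cyclase that makes lanosterol, was at 0.18 (SE 0.07, adjusted p = 0.0667) for ΔIDR3 against GFP. After GC removal LSS was called lower with WT than with GFP (-0.34) and higher in both mutants than with WT (0.36 and 0.41). ME1 and ELOVL5 were then called higher with WT than with GFP (0.47 and 0.29). Both were called lower in each mutant than with WT, at -0.29 in Mut_IDR3 for ME1 and at -0.17 and -0.13 for ELOVL5. ELOVL5 was also called higher with ΔIDR3 than with GFP (0.15). FADS2 was not called under that setting either.

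A wider list of 65 genes around this pathway, of which 57 were tested, covered SREBP processing, sterol efflux and handling, isoprenoid use, and the partners and uses of fatty acid synthesis. With WT against GFP, 19 of the 57 were higher and 21 lower, or 70.2%, beside 54.9% of all genes. After GC removal 22 were higher and 17 lower, where 48.0% of all genes were called, 21.8% higher and 26.2% lower. Of the 40 calls, 26 were kept, 13 were lost and 1 was turned, and 12 other genes gained a call. With Mut_IDR3 against GFP, 9 were higher and 6 lower, or 26.3% beside 21.1% of all genes, and 10 of these 15 calls were lost after GC removal. That removal left 6 higher and 1 lower, where 14.5% of all genes were called. With ΔIDR3, 9 were higher and 7 lower, or 28.1%, a share near the 29.0% of all genes. ABCA1, the pump that exports cholesterol to apolipoproteins and a known target of the sterol sensor LXR, was the one called gene of this list that WT changed at least 2-fold. With 953 counts in all it was at 2.29, 1.4 and 1.06 CPM (GFP), 0.165, 0.355 and 0.266 CPM (WT), 4.31, 5.37 and 3.85 CPM (Mut_IDR3) and 2.15, 2.16 and 1.91 CPM (ΔIDR3). WT lay below and Mut_IDR3 above all other libraries, and ΔIDR3 overlapped GFP. ABCA1 fell 5.98-fold with WT (log2 fold change -2.58, SE 0.35, adjusted p = 1.85e-05) and rose 2.86-fold with Mut_IDR3 (log2 fold change 1.51, SE 0.29, adjusted p = 0.00303). Against WT it was higher by 4.09 (SE 0.35, adjusted p = 3.57e-07) in Mut_IDR3 and 2.97 (SE 0.35, adjusted p = 5.13e-06) in ΔIDR3.

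Set beside the promoter motifs, 12 tested genes had an AP-2 match in the 250 bases before a start. With WT against GFP, 3 of these were higher (INSIG1, MVD and ELOVL1), 7 were lower and 2 were not called, with a median log2 fold change of -0.30. Of all genes, 54.9% were called, 27.7% higher and 27.1% lower. After GC removal 6 were higher, 4 were lower and 2 were not called, with a median of 0.07, so the lean to lower values was not kept. In that fit 48.0% of all genes were called, 21.8% higher and 26.2% lower. Of the 21 tested genes with a promoter in the table and no match, 8 were higher, 6 were lower and 7 were not called, with a median of 0.14, and after GC removal 5, 6 and 10, with a median of -0.03. Of the 5 genes with a printed AP-2 match, MVD and ELOVL1 were higher and SREBF1, SCD and ACSS1 lower. Those 5 were chosen with their changes known, so their split says nothing about the motif. ELOVL6, which fell most, had no AP-2 match in the window. These counts are a description of letters in short windows, and binding of TFAP2β was not measured here.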

How the data were processed

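RNA-seq libraries of KYSE150 cells were made with a SMARTer mRNA kit from 1 µg of total RNA, per the labels' protocols. The deposited counts, 1 whole number per gene and library, were used as given. Per the submitters' processing notes, the tools were HISAT2, StringTie and Trim Galore and the build GRCh38; versions, the program that counted reads, its annotation and its strand setting are not given in the sources used here. Where genes overlap or have near-identical copies, reads are therefore uncertain: FDPS, CYP51A1, HSD17B7, SCD and FADS2 have annotated pseudogenes, and CYP51A1, ACAT2, FADS1 and FADS2 share exonic bases with other genes.

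Genes were kept by filterByExpr (14792 of 24302), scaled by TMM and tested with edgeR 4.0.16 in R 4.3.3 (quasi-likelihood F test) in 1 fit of all 4 groups, with 8 residual degrees of freedom. P-values were adjusted by Benjamini-Hochberg over all genes tested in each of 6 comparisons, and a call is an adjusted p under 0.05 whatever the size of the change. With 3 libraries a group, a two-sided exact permutation test cannot fall under p = 0.1. Values after ± are SDs over 3 libraries. GC content (longest transcript) and exonic length came from GENCODE 29 on GRCh38. The GC trend was removed by offsets in 20 GC bins, set from genes averaging 1 CPM or more. Promoters were the 250 bases before each RefSeq start.

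Genes called in at least 1 comparison with a log2 fold change of 0.5 or more are given in every library (15 genes). Other genes are given by values or counts. Neighbouring genes are named where WT changed them at least 2-fold. The members, the lists and the tests were chosen with earlier results of these data known. The alternatives tried were scaling by median ratios or upper quartiles, testing without a filter or with 1 CPM required in 3 libraries, DESeq2 1.42.0, limma-voom (limma 3.58.1), only the groups compared, the replicate number as a block, GC removal with and without that block, exclusion of mitochondrially encoded genes, an adjusted p under 0.01, and each of 12 libraries left out. Simulated counts with known changes were used to test the code.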

Additional observations from a re-analysis of the deposited data

How the results depend on the processing

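The number of lipid synthesis genes called kept within 1.5 times its value under all 12 alternatives and all 12 fits without 1 library for 4 comparisons: WT against GFP, ΔIDR3 against GFP, and each mutant against WT. For Mut_IDR3 against GFP, 14 became 7 after GC removal, 7 with GC removal and the replicate block, and 8 at an adjusted p under 0.01, and leaving out single libraries gave 8 to 18. For Mut_IDR3 against ΔIDR3, 10 became 5 at an adjusted p under 0.01, and leaving out single libraries gave 6 to 13. Shares of all genes called are given here only for the fit without alternatives and after GC removal. Whether these genes moved apart from all genes under the other settings was not tested. Calls kept under every alternative numbered 14 of 27 for WT, 6 of 14 for Mut_IDR3 and 8 of 13 for ΔIDR3 against GFP. Against WT they were 16 of 24 and 14 of 25, and between the mutants 5 of 10. Scaling moved the median of all genes by less than 0.1 on the log2 scale in each case.

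GC removal reversed the direction of some log2 fold changes. Genes called in neither fit also turned, among them ACSL3 for Mut_IDR3 against GFP (-0.21 to 0.06), and are not listed. A second value is that with the replicate block as well, where it differs at the precision given. The reversals listed had a call before or after the removal. For WT against GFP these were SREBF2 (-0.12), HMGCS1 (0.22), MVK (-0.24), PMVK (-0.10 and -0.096), LSS (-0.34 and -0.35), SC5D (0.068 and 0.067), ME1 (0.47), ELOVL5 (0.29), ACSL3 (0.0018 and 0.0013) and ACSL4 (0.077 and 0.074). For Mut_IDR3 against WT these were STARD4 (-0.061 and -0.058), ME1 (-0.29), ELOVL5 (-0.17) and ACSL4 (-0.24). For ΔIDR3 against WT these were SCAP (0.023 and 0.022), HMGCS1 (-0.014), MVK (0.012 and 0.011), TM7SF2 (0.30), EBP (0.028), SC5D (-0.057 and -0.055), ELOVL5 (-0.13, only without the block) and ACSL3 (-0.071). The removal uses GC content alone, and why the libraries differ in it was not tested.

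The labels give every group replicates 1 to 3. Same-numbered libraries did not deviate together: their correlations were -0.07 to 0.08 over 18 pairs, and 3 of 12 libraries correlated best with their own number. With the replicate number as a block, 25, 12 and 12 genes were called against GFP (WT, Mut_IDR3 and ΔIDR3). There were 20 and 25 against WT and 9 between the mutants, and the shares of all genes under that block are not given here. On the plus strand alone 13 promoters of these genes held CCAAT (28.3%, beside 18.1% of all promoters), where both strands gave 27 (58.7% beside 32%).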
